A study of Mus musculus with 16 samples.

Results

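The genes described here are 9 components of hepatocyte cell junctions: the claudins Cldn1, Cldn2 and Cldn3, occludin (Ocln), the scaffold protein gene Tjp1, the connexins Gjb1, Gjb2 and Gja1, and the E-cadherin gene Cdh1. They were taken by name from a list, and all 9 were found by symbol among the 13006 genes of the deposited table and were among the 12918 tested. The data are poly(A) RNA sequencing of mouse liver, with 16 libraries in 4 groups of 4. All groups share 1 genotype, Humanized PXR-CAR-CYP3A4/3A7, in which the nuclear receptors PXR and CAR and the enzymes CYP3A4 and CYP3A7 are the human ones. CV, the control group, received propylene glycol, the vehicle. EV received ethinylestradiol (EE), a synthetic estrogen used to induce cholestasis, by subcutaneous injection at 10 mg/kg for 7 days. CM received the code-named CAR ligand MI763F by gavage at 2.5 mg/kg for 6 days from day 2 and no EE. EM received both agents at these doses. The sources used here do not say whether CV and EV mice were given the oral formulation without MI763F, nor do they give the age or sex of the animals. They also leave unsaid whether every library came from a different mouse, and the p-values then describe variation among samples that may be technical.

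Bile canaliculi are narrow channels between neighbouring hepatocytes. Tight junctions seal them off from blood: claudins and occludin span the membrane and set which ions and molecules pass, and scaffold proteins such as Tjp1 anchor them to actin. Claudins differ in function, since Cldn2 forms pores for small cations and water while Cldn1 and Cldn3 tighten the seal. Connexins form gap junctions that pass ions and second messengers between hepatocytes, and cadherins hold the cells together at adherens junctions.

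Totals ran from 14115384 to 21473227 estimated counts per library. Levels are given as CPM, counts scaled to library size, after TMM scaling, which corrects for differences in RNA composition. The TMM factors were 0.833 to 0.91 in the 8 libraries without EE and 1.1 to 1.23 in the 8 with EE, so EE comparisons depend on the scaling, and with plain library totals the median of all genes shifted by 0.49 on the log2 scale in EV vs CV. Hepatocyte markers were abundant in every library: the summed level of 11 measured markers, Alb among them, was 129700 to 162400 CPM in CV and 53750 to 65530 in EV, and 9 of them fell with EE. Over the same comparison 10 of 12 macrophage markers rose (summed level 383 to 986 CPM in CV, 2299 to 2689 in EV), as did 7 of 12 endothelial markers (155 to 290 CPM, and 319 to 369), 7 of 10 lymphocyte and neutrophil markers (12.2 to 28.8 CPM, and 81.3 to 189) and all 5 red cell markers. Of 4 measured markers of small intestine epithelium, 3 rose as well (288 to 440 CPM, and 1340 to 1771): Apoa4, Fabp2 and the cadherin Cdh17, which was at 0 in every CV and CM library and at 5.00 ± 1.87 CPM in EV. The remaining marker, Lgals4, was at 17.05 CPM in CV and 13.45 in EV and was not called. Apoa4 (269 CPM) and Fabp2 (68.0 CPM) were already present in CV, so here they do not mark intestine alone. Most of the sum in EV was Apoa4, at 1369 CPM. Stellate and fibroblast markers gave 4 rises and 3 falls among 14 (367 to 613 CPM, and 296 to 321). In bulk liver, fewer cells of a type and less RNA per cell cannot be told apart.

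Per kilobase of exon, the connexins Gjb1 and Gjb2 and the claudin Cldn3 were the most abundant of the 9 transcripts, and the connexin Gja1 the least. In CV the mean level per kilobase was 349 ± 15.2 CPM for Gjb1, 126 ± 15.6 for Gjb2, 91.4 ± 7.15 for Cldn3 and 10.7 ± 2.06 for Cldn2 (SD, n = 4), and the ranges of these neighbours did not overlap. Below them came Cldn1 (2.96 ± 0.725 CPM per kilobase) and Ocln (2.57 ± 0.779), whose ranges overlapped, then Tjp1 (1.41 ± 0.239), Cdh1 (0.767 ± 0.465) and Gja1 (0.27 ± 0.0715), where each overlapped the next. In EV the order changed at 2 places: Cldn3 (60.0 ± 2.91 CPM per kilobase) stood above Gjb2 (52.0 ± 4.89) with overlapping ranges, and Cdh1 (2.21 ± 0.142) stood above Ocln (1.31 ± 0.263) with ranges apart. Exon lengths came from an annotation of an earlier build, so the order holds only as far as those lengths fit the transcripts used. The deposited values also look already rescaled by gene length, and dividing by exon length would then correct for length again. Without the division, EV means were 125 CPM for Gjb2, 103 for Cldn2 and 75.5 for Cldn3. The place of Cldn3 above Gjb2 and Cldn2 in EV therefore depends on the division. Cdh1 (10.1 CPM) stood above Ocln (5.52) in EV without it too.

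EE without the ligand changed 6 of the 9 genes, and in opposite directions. The pore-forming claudin Cldn2 and the E-cadherin gene Cdh1 rose, while the sealing claudin Cldn3, occludin and both hepatocyte connexins, Gjb1 and Gjb2, fell. Cldn1, Tjp1 and Gja1 did not pass the test. Of all genes, 50.4% were called in this comparison (edgeR's quasi-likelihood test, adjusted p under 0.05), 25.5% upward and 24.9% downward, so a count of 6 of 9 is not far from the background. That even split belongs to the TMM scaling: with library totals 8377 genes were called, 7048 higher and 1329 lower, or 84.1% upward. The median absolute log2 fold change was 0.93 for the 9 genes and 0.46 for all genes, and the signed medians were -0.15 and 0.0041. The EV and CV ranges of 6 of the 9 did not overlap, as for 47.3% of all genes.

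**Figure D1:**
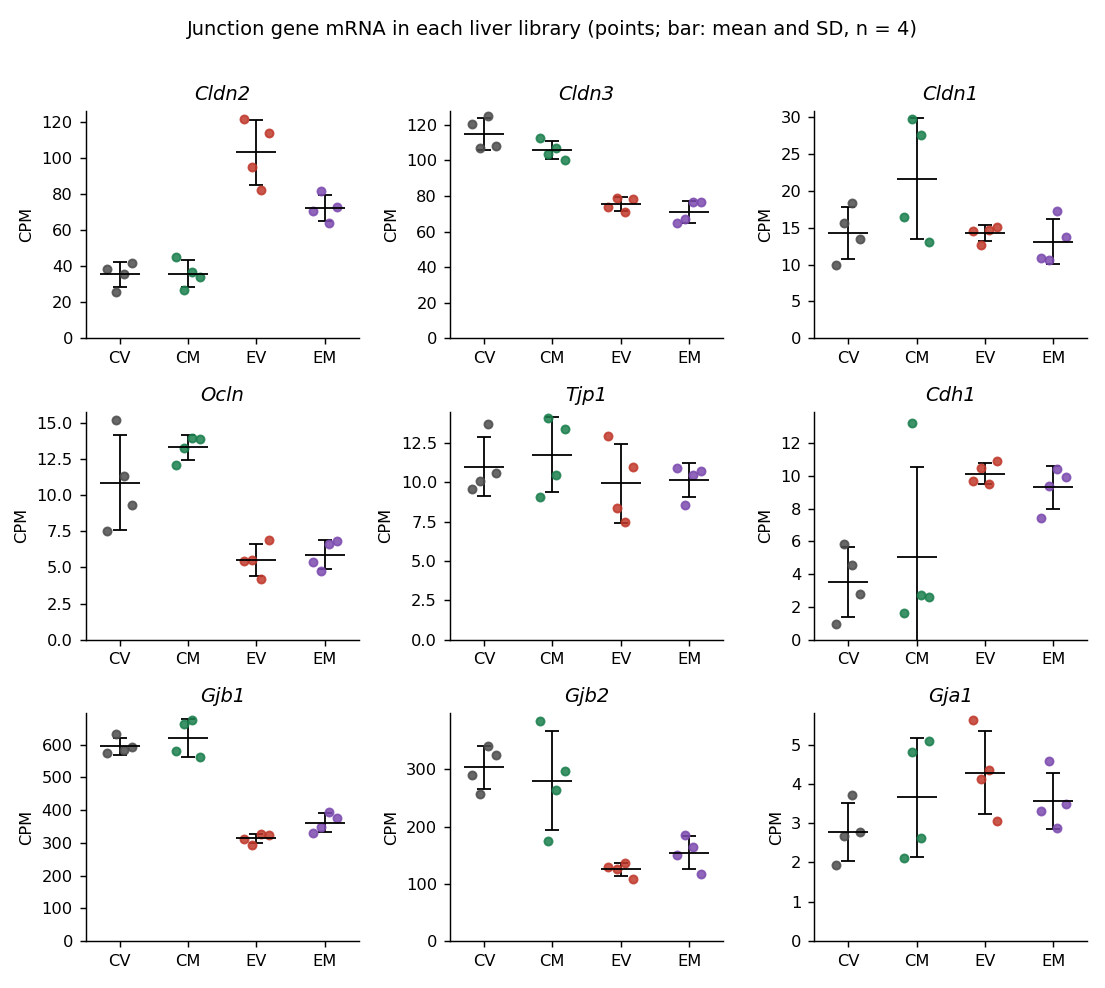
CPM (vertical axes, linear, from 0) of the 9 junction genes in the 4 groups (horizontal axes); each point is 1 library, horizontal bars are means and error bars are SDs over 4 libraries (cut off at 0 for Cdh1 in CM). Cldn2 lies at 64.2 CPM or more in all 8 libraries with EE and at 45.2 CPM or less in the 8 without, and Cldn3, Ocln and Gjb1 are lower in every library with EE than in any without. The share of all genes set apart in this way was not computed.

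Cldn2 was measured at 38.7, 26.0, 35.9 and 41.8 CPM in CV replicates 1 to 4. In EV it stood at 121.6, 95.1, 82.3 and 113.9 CPM. Every EV library was above every CV library, and the lowest EV value was well clear of the highest CV value. The mean rose from 35.6 ± 6.85 to 103 ± 17.8 CPM (SD, n = 4; log2 fold change 1.53 ± 0.17 SE, or 2.90-fold, 95% interval 1.17 to 1.90, adjusted p = 3.38e-06).

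Cldn3, which seals the paracellular space, went the other way and varied little within groups. Its CV values were 120.4, 107, 125 and 108 CPM. Its EV values were 74.0, 78.6, 71.0 and 78.4 CPM, all below the lowest CV library. The mean fell from 115 ± 8.99 to 75.5 ± 3.67 CPM (log2 fold change -0.61 ± 0.077 SE, adjusted p = 1.19e-05), but with library totals the difference was -0.12 (adjusted p = 0.171) and the call was lost. The gene shares 40 bp of exon with the antisense gene Wbscr25, which is not in the deposited table, and the sources used here do not give how strand was handled in counting.

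The ratio of Cldn2 to Cldn3 within a library does not depend on the scaling. Per kilobase of exon it was 0.122, 0.0919, 0.109 and 0.147 in CV and 0.622, 0.458, 0.439 and 0.55 in EV. It was 0.152, 0.0991, 0.131 and 0.128 in CM and 0.413, 0.462, 0.317 and 0.36 in EM. All 8 libraries with EE lay above all 8 without, so relative to each other the transcripts of these claudins changed unequally under any scaling factor. This ratio was chosen after the values were seen and was not tested. Its size depends on the division by exon length, since the deposited values look already rescaled by gene length. Without that division, Cldn2 was above Cldn3 in every EV library (82.3 CPM or more against 78.6 or less). In every CV library Cldn2 was below Cldn3 either way.

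Cldn1, the claudin whose loss in humans causes a neonatal cholestasis with skin disease, was at 9.97, 15.6, 18.3 and 13.4 CPM in CV and at 14.6, 12.6, 14.6 and 15.1 CPM in EV. The groups overlapped throughout. The log2 fold change was -0.01 ± 0.25 SE, with a 95% interval from -0.54 to 0.52 (adjusted p = 0.982); with library totals it turned to 0.48 (adjusted p = 0.0989), also not called.

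Occludin, a membrane-spanning partner of the claudins, was low and varied in CV, at 7.54, 15.2, 11.3 and 9.31 CPM. In EV it was at 5.47, 5.54, 4.17 and 6.88 CPM, below each CV library. The mean fell from 10.9 ± 3.29 to 5.52 ± 1.11 CPM (log2 fold change -0.97 ± 0.199 SE, adjusted p = 0.000836), and with library totals the fall was -0.48 (adjusted p = 0.041). Tjp1, the scaffold that binds the tails of claudins and occludin, ranged from 9.61 to 13.7 CPM in CV and from 7.49 to 12.9 CPM in EV. Its log2 fold change was -0.15 ± 0.185 SE (95% interval -0.54 to 0.25, adjusted p = 0.542), and 0.34 with library totals (adjusted p = 0.131).

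Gjb1, the main connexin of hepatocytes, was the most abundant member and, in CV and EV, the one with the smallest spread relative to its mean. It was at 574.9, 634, 584.4 and 592 CPM in CV. In EV it was at 312, 294, 326 and 323 CPM, so no EV library came near the CV range. The mean fell from 596 ± 26 to 314 ± 14.5 CPM (log2 fold change -0.93 ± 0.081 SE, 0.526 of the CV level, adjusted p = 3.24e-07); with library totals the fall was -0.44 (adjusted p = 0.000183).

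Gjb2, a second connexin of hepatocytes that can join Gjb1 in mixed channels, was at 289.6, 257, 341 and 325 CPM in CV. It was at 129, 126, 137 and 109 CPM in EV. The groups were far apart, and of the 4 falls this was the largest, from 303 ± 37.5 to 125 ± 11.8 CPM (log2 fold change -1.28 ± 0.195 SE, adjusted p = 6.63e-05; -0.80 with library totals, adjusted p = 0.00214). The ratio of Gjb2 to Gjb1 per kilobase was 0.288 to 0.414 in CV and 0.239 to 0.305 in EV, with overlapping ranges. The size of this ratio depends on the division by exon length, whereas the overlap does not. The summed hepatocyte marker level was lower in the same EV libraries, with Alb at -1.27 on the log2 scale (adjusted p = 1.8e-05), and the part of hepatocyte content in the connexin differences was not tested.

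Gja1, a connexin known chiefly from cells of the liver other than hepatocytes, was close to the lower end of what these libraries measure, with 27 to 54 estimated counts per CV library and 58 to 121 per EV library. It stood at 1.92, 2.67, 3.71 and 2.77 CPM in CV and at 5.61, 4.13, 4.35 and 3.05 CPM in EV, with overlap. The log2 fold change of 0.63 ± 0.29 SE did not pass (adjusted p = 0.0868), but did with library totals (1.12, adjusted p = 0.00463) and without CV replicate 3 (0.80, adjusted p = 0.0489). Endothelial and macrophage markers were higher in the same EV libraries, at the summed levels given above, and their part in this difference was not tested.

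Cdh1, which joins epithelial cells and in mouse liver is known from periportal hepatocytes and bile ducts, was uneven without EE. It was at 0.925, 5.81, 4.54 and 2.77 CPM in CV, or 13 to 76 estimated counts. In EV it was at 9.70, 10.4, 9.48 and 10.9 CPM, a narrow range above every CV library. The mean rose from 3.51 ± 2.12 to 10.1 ± 0.65 CPM (log2 fold change 1.53 ± 0.57 SE, adjusted p = 0.0376). The call depended on single libraries: it was lost without CV replicate 1 (1.22, adjusted p = 0.0868), without CV replicate 4 (1.43, adjusted p = 0.0875) and without each EV library in turn (1.49 to 1.56, adjusted p = 0.0565 to 0.0684). It was kept with all libraries under the replicate block (adjusted p = 0.00883), DESeq2 (0.0107), only the groups compared (0.0127) and limma (0.0152), and without CM replicate 2, where the SE was 0.36 (adjusted p = 0.0026). Among the 7 measured bile duct markers, whose summed level was 71.8 to 130 CPM in CV and 263 to 342 in EV, Krt19 (1.24 ± 0.97 and 1.30 ± 0.49 CPM) and Epcam (1.81 ± 0.34 and 1.51 ± 0.15 CPM) did not pass. Spp1, Tspan8 and Sox9, which liver cells other than bile duct cells can also express, were the 3 that rose. The part of bile duct cells, or of the intestinal epithelium markers given above, in the Cdh1 difference was not tested.

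**Figure D2:**
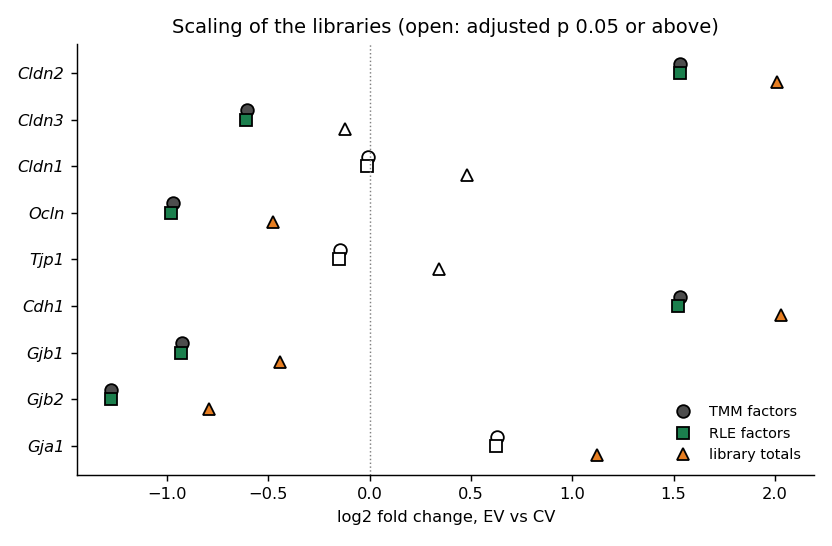
Log2 fold change in EV vs CV (horizontal axis) of the 9 genes (rows) under 3 ways of scaling the libraries; filled symbols have an adjusted p under 0.05. TMM and RLE factors nearly coincide, while library totals move every gene upward, end the call of Cldn3 and add that of Gja1.

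Promoter windows of 4 called genes are shown because these genes moved together or apart with EE. The windows are those of RefSeq on GRCm38.p6, an earlier build than the one the submitters' processing notes name, from 250 bases before to 50 bases after a transcript start; 8 of the 9 genes matched, with 12 windows. The motifs searched on both strands were CACCTG (E-box of SNAI and ZEB factors), CAAAGTCCA (HNF4A type), the HNF1 palindrome, the palindromic estrogen response element, TTGCGCAA (CEBP), the DR4 element (a direct repeat of the spacing bound by CAR), the TATA box with the letters TATAAA, and the GC box with the letters GGGCGG. None of the matches overlap in the windows printed, and capitals mark each match, on either strand. Cldn2, which rose, and Cldn3 and Gjb2, which fell, each have 1 window, at chrX:139800558-139800857 (plus strand), chr5:134985964-134986263 (plus strand) and chr14:57104653-57104952 (minus strand); the window of Gjb1 shown is 1 of 4, at chrX:101383482-101383781 (plus strand).
Cldn2: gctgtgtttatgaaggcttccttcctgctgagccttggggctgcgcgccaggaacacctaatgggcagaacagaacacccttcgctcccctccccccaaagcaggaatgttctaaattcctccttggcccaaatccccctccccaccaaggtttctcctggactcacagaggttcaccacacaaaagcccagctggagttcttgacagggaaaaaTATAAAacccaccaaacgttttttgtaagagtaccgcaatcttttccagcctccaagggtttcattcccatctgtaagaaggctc
Cldn3: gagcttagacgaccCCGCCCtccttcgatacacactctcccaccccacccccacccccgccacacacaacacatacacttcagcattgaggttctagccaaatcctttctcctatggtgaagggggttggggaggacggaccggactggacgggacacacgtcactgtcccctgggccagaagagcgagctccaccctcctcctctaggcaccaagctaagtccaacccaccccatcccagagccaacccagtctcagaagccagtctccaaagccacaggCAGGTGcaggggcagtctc
Gjb2: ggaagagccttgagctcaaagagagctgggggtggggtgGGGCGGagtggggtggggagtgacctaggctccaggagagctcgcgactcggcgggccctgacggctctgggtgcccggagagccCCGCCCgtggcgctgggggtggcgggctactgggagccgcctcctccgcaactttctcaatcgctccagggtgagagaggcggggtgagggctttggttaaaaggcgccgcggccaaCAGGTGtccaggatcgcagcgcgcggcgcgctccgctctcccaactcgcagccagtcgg
Gjb1: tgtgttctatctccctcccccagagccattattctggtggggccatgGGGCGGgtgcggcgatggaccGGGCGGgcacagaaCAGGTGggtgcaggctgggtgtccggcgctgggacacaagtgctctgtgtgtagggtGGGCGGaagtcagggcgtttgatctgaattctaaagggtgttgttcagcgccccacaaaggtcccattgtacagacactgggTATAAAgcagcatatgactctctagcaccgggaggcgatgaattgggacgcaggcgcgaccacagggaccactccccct
The Cldn2 window holds a TATA box, from 35 to 30 bases before the start, and none of the other motifs. The Gjb1 window shown also holds a TATA box, from 29 to 24 bases before its start. It is the only 1 of the 4 Gjb1 windows with any match, and the others hold none of the motifs searched. The E-box was found in the windows of Cldn3 (from 31 bases after the start), Gjb2 (from 9 bases before it), both windows of Ocln and 1 of 4 windows of Gjb1, and in none of those of Cldn1, Cldn2, Tjp1 and Gja1. The windows of Ocln overlap, and the E-box that lies 7 bases after the start of 1 window is the same site as 1 of those before the start of the other. The E-box was present in 20.2% of all 32851 windows. That share is per window, and genes with several windows, such as Ocln and Gjb1, have more chances of a match. The share per gene was not computed. Shares of all windows were 13.6% for the TATA box, 35.7% for the GC box, 0.475% for the HNF4A type, 0.00913% for HNF1, 0.07% for the estrogen response element, 0.183% for CEBP and 0.0152% for DR4. The last 5 were found in no window of these genes. Matches are descriptions of these letters and not of bound sites, and the data do not show which Gjb1 or Ocln start is used.

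With MI763F and no EE, none of the 9 genes passed the test (edgeR's quasi-likelihood test; 0.0929% of all genes were called, 12 upward and 0 downward; DESeq2 called 159 upward and 62 downward, and edgeR without CM replicate 4 called 31 and 8). No member had CM and CV ranges apart, against 4.13% of all genes. At an unadjusted p under 0.05 there was 1 of the 9, and DESeq2 and limma also called 0. That gene was Cldn1, at 16.4, 29.7, 27.5 and 12.99 CPM in CM against 9.97 to 18.3 in CV. Replicates 2 and 3 of CM were above the CV range and the other libraries within it, and the difference did not pass (log2 fold change 0.59 ± 0.25 SE, adjusted p = 0.413). For the abundant genes the intervals were narrow: Gjb1 lay within -0.11 to 0.23 and Cldn3 within -0.28 to 0.04 on the log2 scale (95% intervals). Cldn2 was at 45.2, 27.1, 37.0 and 33.9 CPM in CM, with an interval from -0.36 to 0.37. Gjb2 spread more in CM (384, 175, 263 and 296 CPM; interval -0.53 to 0.29) than in CV.

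In EE mice none of the 9 genes passed the test for the ligand either, while 1.69% of all genes were called (1.51% upward, 0.178% downward). DESeq2 and limma called 0 as well, and 2 genes had an unadjusted p under 0.05. Cldn2 was at 70.6, 81.8, 64.2 and 72.7 CPM in EM, below each EV library (82.3 CPM or more) and above each CV library. Its log2 fold change was -0.51 ± 0.17 SE (95% interval -0.87 to -0.16, adjusted p = 0.162, range over the alternatives 0.0633 to 0.43). Gjb1 was at 331, 347, 394 and 376 CPM in EM, above each EV library (326 CPM or less) and below each CV library. Its log2 fold change was 0.21 ± 0.08 SE (interval 0.04 to 0.38, adjusted p = 0.266, range over the alternatives 0.131 to 0.586). These 2 of 9 were the genes whose EM and EV ranges did not overlap, as was the case for 10.5% of all genes. EV vs CV uses the same EV libraries, so the position of the EM means between those of EV and CV is not separate evidence. The summed hepatocyte marker level was 63470 to 79280 CPM in EM against 53750 to 65530 in EV, and its part in the Gjb1 difference was not tested.

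**Figure D3:**
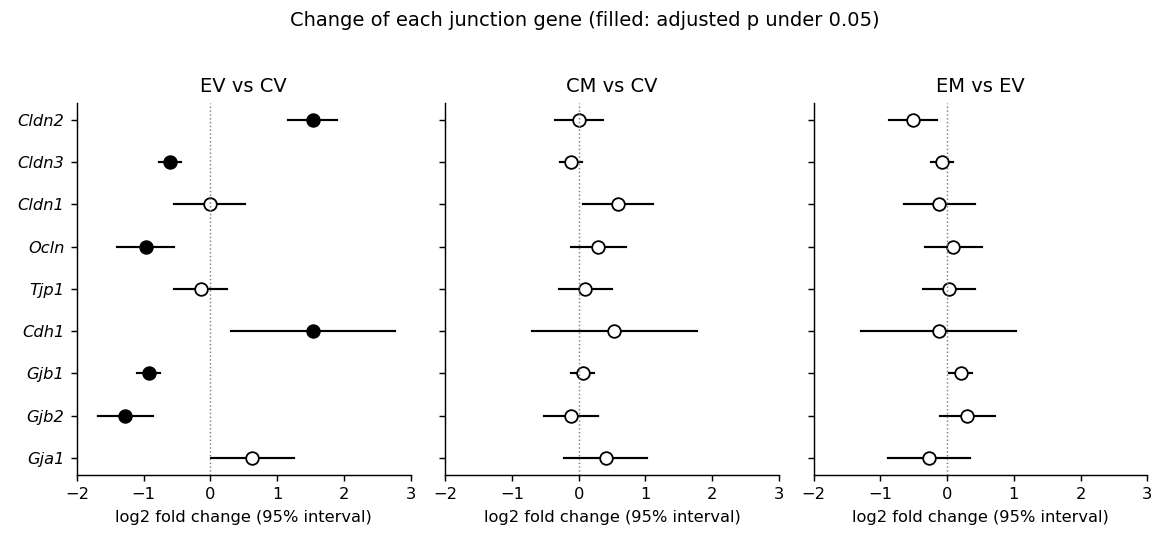
Log2 fold change of the 9 genes (rows) for EE alone, the ligand alone and the ligand in EE mice (EV vs CV, then CM vs CV, then EM vs EV; panels, same horizontal axis); lines are 95% intervals and filled circles have an adjusted p under 0.05. Filled circles appear only for EV vs CV, 2 to the right and 4 to the left. EV vs CV and EM vs EV share the EV libraries with opposite sign, so opposite directions between these panels are not a result.

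The other members overlapped their EV levels. Gjb2 was at 151, 185, 165 and 116 CPM in EM against 109 to 137 in EV (log2 fold change 0.30 ± 0.19 SE, adjusted p = 0.575). Cldn3 was at 64.8, 67.1, 76.6 and 76.5 CPM in EM against 71.0 to 78.6 in EV, with an interval from -0.25 to 0.08, whose upper end is far smaller than the fall in EV vs CV. Ocln was at 5.34, 4.76, 6.62 and 6.82 CPM (interval -0.33 to 0.52) and Cdh1 at 7.42, 9.39, 10.4 and 9.94 CPM (interval -1.29 to 1.04). Cldn1 (10.7 to 17.2 CPM), Tjp1 (8.54 to 10.9) and Gja1 (2.89 to 4.57) overlapped EV.

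Compared with the mice given the ligand alone, mice given both agents showed 6 changed members, 1 higher and 5 lower, where 38.1% of all genes were called (19.4% higher and 18.6% lower). Cldn2 was higher (log2 fold change 1.02 ± 0.17 SE, adjusted p = 0.000264). Cldn3 (-0.57 ± 0.077, adjusted p = 4.51e-05), Ocln (-1.17 ± 0.198, adjusted p = 0.000284), Gjb1 (-0.78 ± 0.08, adjusted p = 4.8e-06) and Gjb2 (-0.86 ± 0.19, adjusted p = 0.00261) were lower. The ranges of 4 members did not overlap, as for 35.4% of all genes. Cldn1 was lower too (-0.72 ± 0.25, adjusted p = 0.0325) although its ranges overlapped; this call was lost without CM replicate 2 (-0.53, adjusted p = 0.11), without CM replicate 3 (-0.58, adjusted p = 0.102) and without EM replicates 1, 2 or 4 (adjusted p = 0.052 to 0.0917). Cdh1 was not called (0.87 ± 0.56, adjusted p = 0.241), but was without CM replicate 2 (1.99, adjusted p = 0.00156), the CM library with the highest Cdh1 level. With library totals the call of Cldn1 was lost (-0.34, adjusted p = 0.249).

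Set against the CV group, EM showed 5 changed members where 40.6% of all genes were called (20.7% higher and 20% lower). Cldn2 was higher, at 72.3 ± 7.27 against 35.6 ± 6.85 CPM (1.02 ± 0.17, adjusted p = 0.000225). Cldn3 (-0.69), Ocln (-0.88), Gjb1 (-0.72) and Gjb2 (-0.98) were lower, at adjusted p between 7.75e-06 and 0.00241. Cdh1 (1.41 ± 0.57) narrowly did not pass (adjusted p = 0.0634), although its EM and CV ranges did not overlap, as was so for 6 of the 9 members and 37.5% of all genes. The comparisons of EM with CV and of EV with CV share the CV libraries, so these values are not separate evidence.

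The test of whether the ligand acted differently with and without EE called none of the 9 genes, against 0.132% of all genes (17 called). DESeq2 and limma also called 0, and 1 of the 9 had an unadjusted p under 0.05. That was Cldn2, at -0.52 ± 0.24 SE (adjusted p = 0.354). Cldn1 gave -0.71 ± 0.35 SE (95% interval -1.46 to 0.04, adjusted p = 0.394).

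**Figure D4:**
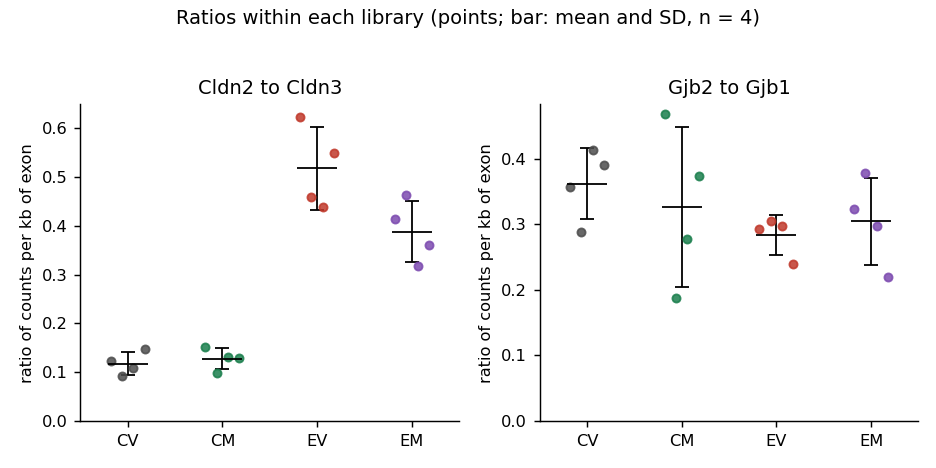
Ratio of Cldn2 to Cldn3 (left) and of Gjb2 to Gjb1 (right) in counts per kilobase of exon (vertical axes, linear, from 0) for each library (points) in the 4 groups, with means and SDs (n = 4). The claudin ratio is 0.317 or higher in every library with EE and 0.152 or lower in every library without, while the connexin ratios overlap between all groups. The size of both ratios depends on the division by exon length, whereas the order of the libraries does not.

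Other genes of the junctions, from 6 lists, were looked at in the same fit, and with EE they too moved in both directions. Among 14 measured membrane proteins of tight junctions, 3 rose and 5 fell (median log2 fold change -0.12), a share called near the 50.4% of all genes. Marveld3, a relative of occludin, rose from 0.537 ± 0.32 CPM in CV, a level too low for a precise fold, to 8.06 ± 1.2 in EV (3.86 ± 0.37 SE, adjusted p = 9.01e-07). Its relatives Marveld1 (-0.63 ± 0.23) and Marveld2 (-0.64 ± 0.15), the latter found where several cells meet, fell, but neither call held with library totals (-0.15, adjusted p = 0.594, and -0.16, adjusted p = 0.39), nor that of Marveld1 without CV replicate 2 or 4 or EV replicate 1 or 4 (adjusted p = 0.0572 to 0.128). Ildr2, of the angulin family of such contacts, fell from 12.4 ± 2.21 to 1.73 ± 0.27 CPM (-2.83 ± 0.21, adjusted p = 5.84e-08). The virus receptor and adhesion protein Cxadr rose from 13.4 ± 1.59 to 33.8 ± 0.9 CPM (1.33 ± 0.1, adjusted p = 8.14e-08), and the adhesion protein Esam, known from endothelium, rose by 0.58 ± 0.14. In EE mice Cxadr was at 25.7 ± 3.19 CPM with the ligand, below each EV library, and did not pass (-0.40 ± 0.098, adjusted p = 0.0562). Cxadr was called there by DESeq2 (adjusted p = 0.00554), with library totals (0.0286) and without CV replicate 1 (0.0364) or EM replicate 1 (0.0337).

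Among 24 scaffold and polarity proteins of tight junctions, 5 rose and 8 fell with EE (median -0.16), again near the 50.4% of all genes. The guanine nucleotide exchange factor Arhgef2 (1.80 ± 0.36) and cingulin (Cgn, 0.34 ± 0.13, adjusted p = 0.0413) rose, the call of Cgn being lost without any 1 of CV replicates 1 to 3, EV replicates 1, 2 and 4 and EM replicates 2 and 3 (highest adjusted p = 0.161). The PDZ scaffold Mpdz (-1.27 ± 0.31), the atypical protein kinase Prkcz (-0.76 ± 0.22) and Scrib (-0.60 ± 0.2) fell; with library totals Prkcz (adjusted p = 0.262) and Scrib (adjusted p = 0.635) were not called, nor was Scrib without CV replicate 1 (-0.31, adjusted p = 0.0768) or EV replicate 1 or 3 (adjusted p = 0.0501 and 0.0561). Of the other gap junction genes only Gja4 and Panx1 were measured, and neither passed: Panx1 went from 0.869 ± 0.51 to 2.12 ± 0.64 CPM (adjusted p = 0.062) and was called with library totals (adjusted p = 0.00904), with only the groups compared (0.0337), by DESeq2 (0.0372) and limma (0.0448), and without CV replicate 3 or CM replicate 1 or 4 (0.0364 to 0.0437).

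Among 19 genes of adherens junctions and desmosomes, 4 rose and 5 fell (median 0.03), where 50.4% of all genes were called. The desmosomal cadherins split: Dsc2 rose from 17.9 ± 3.37 to 58.1 ± 5.2 CPM (1.70 ± 0.15, adjusted p = 3.88e-07), and Dsg2 fell from 30.8 ± 1.45 to 14.9 ± 0.78 CPM (-1.05 ± 0.096, adjusted p = 5.11e-07). Of the catenins, which bind cadherins directly or through one another, Ctnnd1 (0.51 ± 0.11) and Ctnna1 (0.38 ± 0.061) rose, while Ctnnb1 (0.03, adjusted p = 0.763) and Jup (-0.32, adjusted p = 0.0745) did not pass. Plekha7 (-1.11 ± 0.32), an adherens junction protein, and the desmosomal plaque protein Ppl (-1.02 ± 0.35) fell, and neither was called with library totals (adjusted p = 0.0943 and 0.174), nor was Ppl without CV replicate 4 or EV replicate 1 or 4 (adjusted p = 0.0564 to 0.0637). In EE mice Ctnnd1 was at 38.2 ± 2.54 CPM with the ligand against 50.2 ± 5.53 without (-0.39 ± 0.1, adjusted p = 0.0781). Ctnnd1 was called there by DESeq2 (adjusted p = 0.0151), with library totals (0.0348) and without CV replicate 1 (0.0487) or EM replicate 1 (0.0482).

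Of 15 genes for the cytoskeleton, membrane and trafficking of the canaliculus, 7 rose and 6 fell (median 0.04), where 25.5% of all genes were higher and 24.9% lower. The scaffolds of the canalicular membrane fell, Pdzk1 from 65.6 ± 6.72 to 26.9 ± 1.86 CPM (-1.29 ± 0.12, adjusted p = 4.57e-07) and Slc9a3r1 from 184 ± 23.2 to 100.2 ± 2.91 CPM (-0.88 ± 0.12). Of the surface peptidases, Dpp4 fell (-0.94 ± 0.17) and Anpep rose (1.28 ± 0.19), and the vesicle fusion gene Stx3 rose (1.32 ± 0.31). Msn, an actin linker abundant in leukocytes and endothelium, rose from 12.1 ± 4.82 to 52.5 ± 3.64 CPM (2.12 ± 0.27) beside the leukocyte and endothelial marker levels given above, whose part in it was not tested. Pdzk1 was the only gene of the 6 lists called in EM vs EV, at 40.5 ± 2.81 CPM in EM (0.59 ± 0.12, adjusted p = 0.0208). That call was lost with library totals (0.48, adjusted p = 0.0743) and without EV replicates 1, 2 or 4 or EM replicates 2, 3 or 4 (adjusted p = 0.0504 to 0.0929). None of the 6 lists had a called gene in CM vs CV, where the trafficking gene Rab11a (0.26 ± 0.07, adjusted p = 0.187) came closest in its list.

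Of 13 transcription factors, 6 fell and 2 rose (median -0.37), where 24.9% of all genes were lower and 25.5% higher. The list holds regulators of hepatocyte genes such as Hnf4a and also repressors of epithelial genes such as Zeb2. Its counts and median therefore mix both kinds. Cebpa fell from 263 ± 25.3 to 84.7 ± 10.5 CPM (-1.63 ± 0.19, adjusted p = 3.98e-06), Onecut1 from 11 ± 4.01 to 1.78 ± 1.15 CPM (-2.63 ± 0.63, adjusted p = 0.003) and Foxa3 from 54.8 ± 15.3 to 23.7 ± 2.1 CPM (-1.21 ± 0.2, adjusted p = 0.000148). Hnf4a, the master regulator of hepatocyte genes, fell from 304 ± 20.1 to 218 ± 2.37 CPM (-0.48 ± 0.081). Zeb2, a repressor of epithelial genes that macrophages and endothelium also express, rose from 2.80 ± 0.31 to 6.50 ± 0.94 CPM (1.21 ± 0.15, adjusted p = 1.02e-05), in the libraries where macrophage and endothelial markers were higher; their part was not tested. With library totals the balance moved upward in these lists, as it did for all genes (84.1% of calls upward): 8 up and 1 down among the membrane proteins, 11 up and 1 down among the scaffolds, 12 up and 3 down at adherens junctions and desmosomes, and 4 up and 3 down among the transcription factors.

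**Figure D5:**
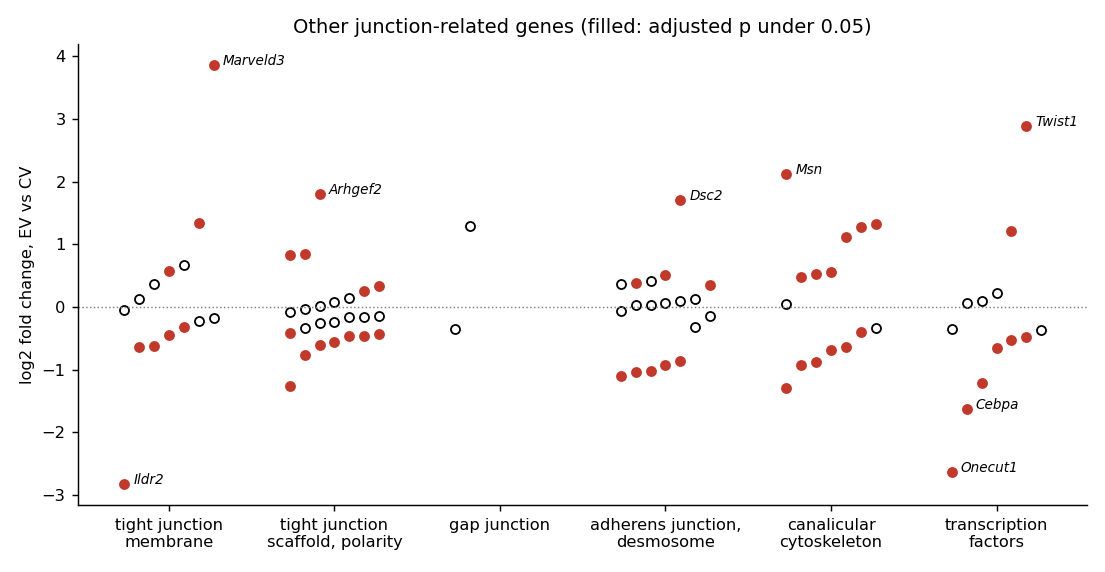
Log2 fold change in EV vs CV (vertical axis) of the tested genes of 6 lists (columns; horizontal offsets only separate the points); filled points have an adjusted p under 0.05, and called genes beyond 1.6 in size are named. Each list except that of gap junctions holds called genes on both sides of 0, from Marveld3 at 3.86 to Ildr2 at -2.83.

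Of the 9 genes, Cldn2, Cldn3, Ocln and Gjb1 had ranges that did not overlap between the 8 libraries with EE and the 8 without, and the other 5 overlapped. The share of all genes set apart in this way was not computed, so the count is a description only. For EV vs CV alone, the ranges of 47.3% of all genes did not overlap. As a description, Gjb1 correlated with Cldn3 (Pearson r = 0.903), Ocln (0.906) and Gjb2 (0.831) and ran opposite to Cldn2 (-0.951), over 16 libraries that share EE status and scaling. With each group's mean subtracted these values were 0.17, 0.411, -0.508 and -0.434, so within groups Gjb1 and Gjb2 did not move together. In the whole table the genes most like Gjb1 were Serpinc1 (r = 0.988), Serpina1d (0.986) and Agxt (0.986), and those most like Cldn2 were Susd1 (0.973), Calu (0.972) and Gas6 (0.964). Cldn3 was nearest to Wdtc1 (0.959), Gjb2 to Hs6st1 (0.97), Ocln to Gstt3 (0.944) and Cdh1 to Capg (0.917). With group means removed, Hs6st1 was again among the 3 nearest to Gjb2 (0.874), while Cldn1 was among those of Gjb1 (0.839).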

How the data were processed

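Poly(A) RNA sequencing of 16 liver libraries was analysed, 4 in each of 4 groups taken from the labels. The deposited table holds estimated counts per gene, all of them whole numbers; per the submitters' processing notes, GRCm39, STAR and Salmon were used, without versions. The sources used here do not give the annotation, strand or counting settings. These values look rescaled by gene length: among 731 genes at 0 in some library, the median smallest value above 0 was 52 for genes under 500 bp of exon and 1 for genes over 4000 bp. Low counts of short genes are therefore less certain than they appear. Levels and ratios per kilobase of exon may also be corrected for length again.

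Symbols and exon lengths came from GENCODE M21 on GRCm38, matching 12692 identifiers. Genes were filtered with edgeR's filterByExpr, scaled by TMM and tested with edgeR 4.0.16 (R 4.3.3) quasi-likelihood in 1 model of all 4 groups, calling genes at a Benjamini-Hochberg adjusted p under 0.05 among the 12918 tested. The biological coefficient of variation was 0.284. Fold changes are on the log2 scale with SEs. The scripts were tested on simulated data. In each list the text names the called genes with the largest changes, up to 3 in each direction, leaving out those whose mean log2 CPM was under 1, or the gene with the smallest p where none was called; likeness is Pearson's r of log2 CPM. Some genes this rule names are not printed, and Hnf4a, Ctnnb1 and Jup were named after their values were seen. Alternatives were RLE factors, library totals, other filters, a replicate block, the compared groups only, DESeq2 1.42.0, limma 3.58.1 and each library left out. The members and lists were chosen with earlier results of these data known. A higher MI763F dose in the labels is not analysed here.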

Additional observations from a re-analysis of the deposited data

Results flagged for a closer look

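Among 36 sets of 4 libraries (9 genes in 4 groups), 1 had a library far from the others; chance alone marks about 1 in 20 such sets. Cdh1 in CM replicate 2 stood at 13.2 CPM, while the other CM libraries were at 1.65, 2.63 and 2.70 CPM. The gap to the nearest library was 0.909 of the range of the group, above Dixon's critical value for 4 samples. Without this library the Cdh1 log2 fold change in CM vs CV was -0.58 in place of 0.53, neither called, and in EM vs CM it was 1.99 (adjusted p = 0.00156) in place of 0.87 (adjusted p = 0.241). In EV vs CV, which does not use this library but shares its spread estimate, leaving it out took the adjusted p of Cdh1 from 0.0376 to 0.0026.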

How the results depend on the processing

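Of the members' log2 fold changes under the alternatives, 1225 kept direction and call, 37 reversed, 11 gained a call and 14 lost it; the number of members called in EV vs CV was 5 to 7. With library totals the reversed values were, in EV vs CV, 0.479 for Cldn1 and 0.342 for Tjp1, in CM vs CV, -0.00422 for Cldn2, in EM vs EV, -0.0802 for Tjp1 and -0.0182 for Ocln, in EM vs CM, 0.155 for Tjp1 and 0.318 for Gja1, in EM vs CV, 0.254 for Cldn1 and 0.262 for Tjp1, and -0.0731 for Cldn3 in the interaction. None of these was called. With library totals 127 genes were called in EM vs EV and 26 in the interaction. In EV vs CV the lists then gave 8 higher and 1 lower (tight junction membrane), 11 and 1 (scaffold), 1 higher (gap junction), 12 and 3 (adherens and desmosome) and 4 and 3 (transcription factors). In EM vs EV they gave 1 lower membrane gene, 1 lower adherens gene and 0 higher canalicular genes. Replicate numbers did not pair the libraries (correlations of deviations between same-numbered libraries -0.0524 to 0.0957); with the replicate block Cldn1 was 0.0377 in EV vs CV, and 6 genes were called in CM vs CV and 79 in the interaction. With limma Cldn1 was 0.0229 in EV vs CV, Gja1 0.039 in EM vs CM, and 30 genes were called in the interaction. With only the groups compared 2 genes were called in CM vs CV. DESeq2 called 221 in CM vs CV, 559 in EM vs EV and 450 in the interaction. With 1 library left out, calls over all genes ranged from 4 to 39 in CM vs CV, 36 to 445 in EM vs EV and 10 to 208 in the interaction. Members that crossed 0 ranged, in EV vs CV, from -0.147 to 0.132 (Cldn1); in CM vs CV, from -0.126 to 0.118 (Cldn2), -0.309 to 0.0526 (Gjb2) and -0.582 to 0.88 (Cdh1); in EM vs EV, from -0.0854 to 0.178 (Tjp1) and -0.021 to 0.217 (Ocln). They ranged, in EM vs CM, from -0.234 to 0.159 (Gja1), in EM vs CV, from -0.286 to 0.015 (Cldn1) and -0.175 to 0.00911 (Tjp1), and in the interaction, from -0.00433 to 0.0806 (Cldn3), -0.192 to 0.0864 (Tjp1) and -1 to 0.457 (Cdh1). The cause was not tested. Cdh1 in EM vs CV, not called, was called with library totals, the block, the compared groups only, DESeq2 and limma (adjusted p = 0.0172 to 0.0287), and without CV replicate 2 or CM replicates 1 or 2 (adjusted p = 0.00591 to 0.0457). Cldn1 in EM vs CM was not called with only the groups compared (adjusted p = 0.0811). Gja1 and Cdh1 were low, at 13 to 234 estimated counts per library. These values look rescaled by gene length and may not be read numbers, so they do not show the depth behind these genes.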
